A study of Mus musculus with 24 samples.

Results

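The 12 CD45+ libraries of the series, of 24 libraries in all, were used to ask whether the effect of HOIL1 deficiency on gene expression differed between mice that kept *Il4ra* in intestinal epithelial cells (IECs) and mice that lacked it there. They were chosen by their labels alone, as all libraries made from CD45+ cells of the ileum. The 4 groups, with 3 libraries each, were Hoil1+/+Il4raflox/flox and Hoil1-/-Il4raflox/flox mice, called f/f here, and the same 2 *Hoil1* genotypes with Vil1cre (Hoil1+/+Il4raflox/flox+Vil1cre and Hoil1-/-Il4raflox/flox+Vil1cre), called ΔIEC. All mice carried the floxed *Il4ra* allele, were of the C57BL/6 strain (C57BL/6 J in the methods) and were 9.0 to 9.9 weeks old. The Hoil1-/- allele is a partial deficiency, since an N-terminal part of HOIL1 is still made at a low level. The *Vil1* promoter drives Cre in IECs, so in the hematopoietic cells that the CD45 sort selects no deletion of *Il4ra* is intended, and a difference in CD45+ cells would be one seen next to an altered epithelium. Both sexes were used, and some epithelial fraction was mixed with lamina propria cells before the sort. Values are CPM, the counts of a gene relative to the total of its library, on the TMM scale of edgeR, which corrects that total for differences in RNA composition. An interaction is the log2 Hoil1 effect (Hoil1-/- over Hoil1+/+) in ΔIEC mice minus that in f/f mice, so that a negative value means a smaller or more negative effect in ΔIEC mice.

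HOIL1, encoded by *Rbck1*, HOIP, encoded by *Rnf31*, and SHARPIN form the linear ubiquitin chain assembly complex (LUBAC), which places linear ubiquitin chains on proteins of the TNF receptor and other pathways and so regulates NF-κB and cell death. IL-4Rα is the shared receptor chain for IL-4 and IL-13. In the small intestine, tuft cells release IL-25, type 2 innate lymphoid cells (ILC2) respond with IL-13 and IL-5, and IL-13 acts through IL-4Rα on epithelial progenitors to raise the numbers of tuft and goblet cells. Removal of IL-4Rα from IECs breaks that loop at the epithelium.

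Total counts per library were 55423267 to 76807504 in Hoil1+/+ f/f, 25222721 to 63184034 in Hoil1+/+ ΔIEC, 27191458 to 52267821 in Hoil1-/- f/f and 14938629 to 32434244 in Hoil1-/- ΔIEC mice, so the last group was the least deeply sequenced. Library 13 (Hoil1-/- f/f) and library 24 (Hoil1-/- ΔIEC), which the authors left out, stood apart on the first 2 principal components and lacked any count for 3379 and 4014 of the genes tested, against 905 to 2516 in the other 10 libraries. Results are therefore given with all 12 libraries and without these 2. *Xist*, a marker of female cells, was above 10 CPM in 0 of 3 Hoil1+/+ f/f, 2 of 3 Hoil1+/+ ΔIEC, 2 of 3 Hoil1-/- f/f and 1 of 3 Hoil1-/- ΔIEC libraries, so sex moved in part with the contrast, and a fit with *Xist* as a covariate is given beside the results. Epithelial transcripts were present in every CD45+ library, with *Epcam* at 6.15 to 60.1 CPM against 228 to 664 CPM for *Ptprc*, which encodes CD45. In bulk RNA, fewer cells of a type and less RNA per cell cannot be told apart. The labels do not tie the libraries to single animals, and the p-values measure the spread between these libraries.

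The targeted gene fell in both *Il4ra* genotypes, by 4.07 on the log2 scale in f/f mice (adjusted p = 0.00660) and by 3.83 in ΔIEC mice (adjusted p = 0.0112, edgeR with Benjamini-Hochberg adjustment), although both calls were lost without libraries 13 and 24 and with total counts in place of TMM. *Rbck1* (chromosome 2, 152316334 to 152332653 of GRCm38) was at 109, 125 and 79.5 CPM in Hoil1+/+ f/f and 4.72, 9.13 and 4.74 CPM in Hoil1-/- f/f libraries. It was at 137, 133 and 115 CPM in Hoil1+/+ ΔIEC and 13.9, 6.05 and 7.08 CPM in Hoil1-/- ΔIEC libraries, so every library matched its *Hoil1* label. The interaction was 0.24 (95% interval -0.86 to 1.35, unadjusted p = 0.642, edgeR). *Il4ra* itself was at 78.6 to 239 CPM in the 6 f/f and 93.8 to 258 CPM in the 6 ΔIEC libraries, ranges that overlapped, and its interaction was 0.53 (-0.85 to 1.91). HOIP (*Rnf31*) was at 34.3 to 57.8 CPM across the 12 libraries, with an interaction of -0.13.

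Across all genes, no interaction passed. Of 16060 genes tested over the 12 libraries, 0 had an adjusted p under 0.05 in edgeR's quasi-likelihood test with Benjamini-Hochberg adjustment, and the smallest adjusted p was 1.00. At an unadjusted p under 0.05 there were 703 genes, 4.38% of those tested, of which 305 (1.9%) had a positive and 398 (2.48%) a negative interaction, and 102 genes (0.635%) were under 0.01. Without libraries 13 and 24, 17029 genes were tested, 0 passed, the smallest adjusted p was 0.591, and 1193 genes (7.01%) had an unadjusted p under 0.05. Of the 703 genes, 472 were also among these with the same direction, 180 positive and 292 negative. The edgeR likelihood ratio test called 25 interactions (3 positive and 22 negative) and DESeq2 called 89 (25 positive and 64 negative) at an adjusted p under 0.05, with 18 genes called by both. In 22 of the 25 and in 74 of the 89, at least 1 group had no count at all. limma's voom with quality weights called 0, with 972 positive and 766 negative interactions at an unadjusted p under 0.05.

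The depth of replication limits what could be seen. Over all genes the median standard error of the interaction was 0.83 on the log2 scale and the median half-width of its 95% interval 1.82. For the 8354 genes at a mean of 10 CPM or more these were 0.52 and 1.13. An interaction smaller than about 1.13 in a well-expressed gene was therefore within the interval of a typical gene at this number of libraries. That interval is not adjusted for the number of genes tested, and the adjusted threshold is stricter, so larger interactions could also fail to pass. The median interaction over all genes was -0.04, and with total counts in place of TMM it was -0.37.

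The Hoil1 effects in the 2 *Il4ra* genotypes, which share no library, had a Pearson correlation of 0.000691 over 14566 genes that had a count in every group (genes are not independent replicates). In 35 genes (0.218%) every Hoil1-/- library was below every Hoil1+/+ library in f/f mice and above every one in ΔIEC mice, and in another 35 (0.218%) the reverse held. Genes with all Hoil1-/- libraries above all Hoil1+/+ libraries in both *Il4ra* genotypes numbered 34 (0.212%), among them *Nmur1*, *Klrg1*, *Il5*, *Il13*, *Il1rl1*, *Ang4* and *Retnla*, and genes with all below in both numbered 38 (0.237%), *Rbck1* among them. Opposite and same-direction separation were thus about equally frequent. How many genes of each pattern a random order of the libraries would give was not tested. The separation of a single gene, here or below, is therefore a description of these libraries only.

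**Figure D1:**
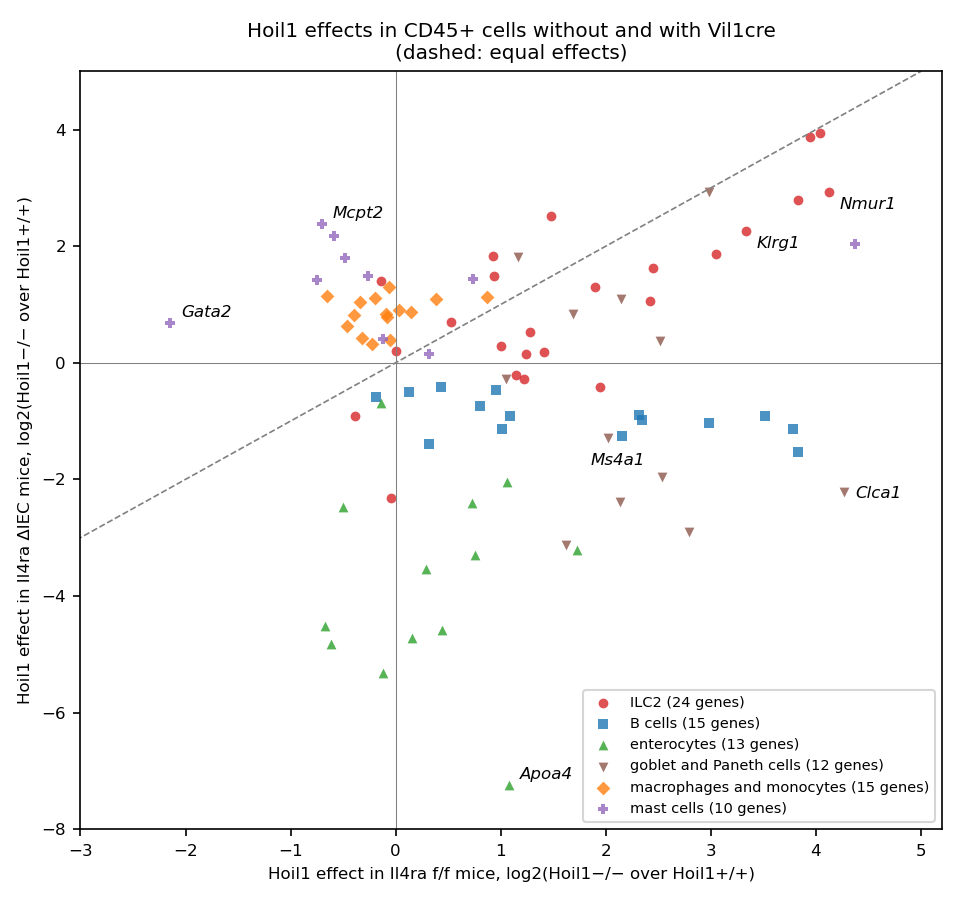
The log2 Hoil1 effect in ΔIEC mice (y axis) is plotted against that in f/f mice (x axis) for genes of 6 lists with a count in every group, 1 point a gene, with equal effects on the dashed line. ILC2 genes lie mostly above 0 on both axes, B cell genes below 0 in ΔIEC and mostly above 0 in f/f mice, enterocyte genes below 0 in ΔIEC mice, and macrophage genes above 0 in ΔIEC mice and near 0 in f/f mice.

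Most genes of ILC2, the innate source of IL-5 and IL-13, had a positive Hoil1 effect in both *Il4ra* genotypes, none of which passed the adjusted threshold, nor did any interaction. Of the 27 ILC2 genes, all of which were tested, 24 had a positive Hoil1 effect in f/f and 22 in ΔIEC mice, with medians of 1.48 and 1.30. The list holds *Nmur1*, *1700061F12Rik*, *Klrg1*, *Il5*, *Il17rb* and *Epas1*, which the study called from these same CD45+ cells as changed by HOIL1 loss in both *Il4ra* genotypes. Their positive effects here were therefore known in advance and add no separate support. The interaction was negative in 20 and positive in 7, with a median of -0.83 against -0.04 over all genes, and 1 of 27 (3.70%) had an unadjusted p under 0.05, near the 4.38% of all genes (0 to 3 genes with 1 library left out). The summed ILC2 genes were at 422, 489 and 360.5 CPM in Hoil1+/+ f/f and 501, 1695 and 547 CPM in Hoil1-/- f/f libraries. In ΔIEC mice they were at 715, 782 and 441 CPM in Hoil1+/+ and 1475, 1207 and 394 CPM in Hoil1-/- libraries, so library 24 lay below every Hoil1+/+ ΔIEC library. The median interaction was -0.91 without libraries 13 and 24, -0.06 with *Xist* as a covariate and 0.30 with the mean log2 level of B cell genes as a covariate.

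*Klrg1*, an inhibitory receptor of activated ILC2 and effector lymphocytes, was at 4.73, 3.68 and 3.62 CPM in Hoil1+/+ f/f and 10.1, 6.70 and 3.09 CPM in Hoil1+/+ ΔIEC libraries. In Hoil1-/- f/f libraries it was at 31.1, 70.1 and 20.3 CPM and in Hoil1-/- ΔIEC libraries at 37.2, 27.7 and 31.2 CPM. Every Hoil1-/- library lay above every Hoil1+/+ library, and the Hoil1-/- groups overlapped each other. The Hoil1 effect was 3.34 in f/f and 2.27 in ΔIEC mice, an interaction of -1.07 (-2.55 to 0.41, unadjusted p = 0.141, edgeR), which was -0.14 with *Xist* as a covariate. *Nmur1*, the receptor through which neuromedin U activates ILC2, was at 1.45 to 4.40 CPM in the 6 Hoil1+/+ libraries. It was at 22.99, 81.6 and 12.8 CPM in Hoil1-/- f/f and at 30.7, 17.5 and 13.6 CPM in Hoil1-/- ΔIEC libraries. The highest value came from library 14 and the other 5 overlapped, so that the interaction of -1.19 (-3.17 to 0.79, unadjusted p = 0.213, edgeR) was within the spread.

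The type 2 cytokines were low and varied widely. *Il13* was at 0 to 2.92 CPM in Hoil1+/+ libraries, 11.8, 32.5 and 2.85 CPM in Hoil1-/- f/f and 36.8, 40.1 and 5.05 CPM in Hoil1-/- ΔIEC libraries. Its Hoil1 effects were 3.94 and 3.87, and the interaction of -0.07 had an interval of -3.82 to 3.67 and changed sign under 8 of 24 alternatives. *Il5* had no count in 5 Hoil1+/+ libraries and 0.220 CPM in library 22, against 3.49, 12.5 and 1.08 CPM in Hoil1-/- f/f and 6.34, 8.39 and 14.1 CPM in Hoil1-/- ΔIEC libraries. The Hoil1-/- groups overlapped, and since the Hoil1+/+ f/f group had no count the interaction is not given. *Il4* was at 3.74, 6.74 and 0.836 CPM in Hoil1-/- f/f and 13.1, 14.7 and 0 CPM in Hoil1-/- ΔIEC libraries, against 1.43 to 3.40 CPM in Hoil1+/+ libraries, with an interaction of 0.91 (-3.25 to 5.07). Library 24 set the lowest value and libraries 16 and 17 the highest.

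Other ILC2 genes were expressed at higher levels. *Gata3*, the transcription factor that defines type 2 lymphocytes, was at 25.9, 219 and 49.97 CPM in Hoil1-/- f/f and 232, 166 and 21.02 CPM in Hoil1-/- ΔIEC libraries, against 10.9 to 75.3 CPM in Hoil1+/+ libraries, and had an interaction of -0.60 (-3.35 to 2.15). Libraries 13 and 24 held the lowest *Gata3* of their groups. *Il1rl1*, the IL-33 receptor, was at 10.7, 6.06 and 3.83 CPM and 13.98, 29.3 and 14.1 CPM in f/f mice (Hoil1+/+ and Hoil1-/-) and at 7.47, 4.99 and 4.08 CPM and 45.7, 25.7 and 22.9 CPM in ΔIEC mice, with Hoil1 effects of 1.48 and 2.51 and an interaction of 1.03 (-0.41 to 2.48). The lowest Hoil1-/- library was above the highest Hoil1+/+ library in both. *Il17rb*, the IL-25 receptor, ranged from 20.8 to 130.2 CPM in Hoil1-/- f/f and from 1.29 to 126 CPM in Hoil1-/- ΔIEC libraries, the lowest being library 24, and its interaction was -1.04 (-4.43 to 2.36). *Epas1*, which encodes HIF-2α, had an interaction of -1.19 (-3.33 to 0.95), and *Il7r*, the receptor for the lymphocyte survival factor IL-7, of -1.49.

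The ILC2 gene with the smallest p was *Alox5*, which encodes the 5-lipoxygenase of leukotriene synthesis and is also made by macrophages, mast cells and granulocytes. It was at 53.1, 30.03 and 52.5 CPM and 61.96, 43.7 and 17.6 CPM in f/f mice (Hoil1+/+ and Hoil1-/-), which overlapped. In ΔIEC mice it was at 12.9, 7.98 and 23.8 CPM and 49.3, 32.8 and 36.8 CPM, which did not. Its interaction was 1.55 (0.07 to 3.03, unadjusted p = 0.0417, edgeR), the opposite sign to most of the list, and 0.89 with the epithelial genes as a covariate. *1700061F12Rik*, a long intergenic non-coding RNA, had no count in any Hoil1+/+ library, and was at 0, 8.38 and 0.619 CPM in Hoil1-/- f/f and 3.39, 2.12 and 3.91 CPM in Hoil1-/- ΔIEC libraries, which overlapped. Genes of ILC3 and of IL-17 or IL-22 lymphocytes had a median interaction of -0.09 (8 of 14 negative, 0 with an unadjusted p under 0.05), and *Ncr1*, a receptor of natural killer cells and ILC3, the smallest p among them (-3.66, unadjusted p = 0.0626, edgeR). Without libraries 13 and 24, 4 of 14 had an unadjusted p under 0.05, all negative, against 7.01% of all genes in that fit. *Ncr1* was then at -3.59 (unadjusted p = 0.00577, edgeR).

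**Figure D2:**
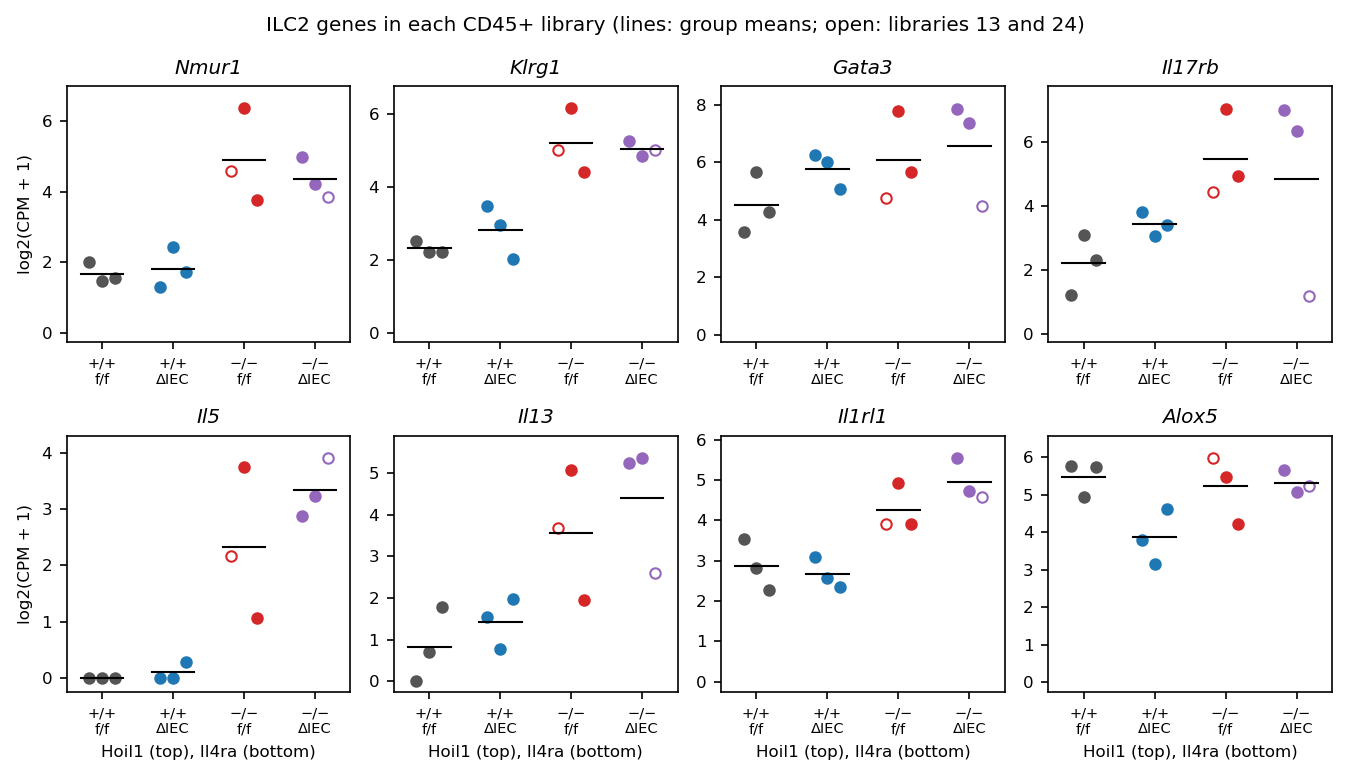
Each point is 1 CD45+ library, with log2(CPM + 1) on the y axis and the 4 genotypes on the x axis, lines at group means and open points for libraries 13 and 24. *Nmur1*, *Klrg1* and *Il5* are higher in all 6 Hoil1-/- than in all 6 Hoil1+/+ libraries, *Il13* only within each *Il4ra* genotype, and all 4 overlap between the Hoil1-/- groups, while the *Alox5* values of the *Hoil1* genotypes overlap in f/f and do not overlap in ΔIEC mice.

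Epithelial transcripts carried the interactions with the smallest p. Enterocyte genes, all epithelial genes and goblet and Paneth cell genes had median interactions of -4.13 (14 of 14 negative), -2.49 (12 of 12) and -3.32 (12 of 13), and an unadjusted p under 0.05 was reached by 6, 4 and 4 of them, all negative (42.9%, 33.3% and 30.8%, against 2.48% of all genes). The summed enterocyte genes were lowest in the Hoil1-/- ΔIEC libraries, at 103, 98.1 and 103 CPM. In the other groups the sums were 140.4, 385 and 221 CPM in Hoil1+/+ f/f, 756, 347 and 122 CPM in Hoil1+/+ ΔIEC and 232, 167 and 482 CPM in Hoil1-/- f/f libraries. The other 2 lists overlapped between groups. The summed genes of all epithelium were at 110.4, 70.4 and 109 CPM in Hoil1-/- ΔIEC libraries and at 76.4 CPM in Hoil1+/+ ΔIEC library 22, and those of goblet and Paneth cells at 107, 137 and 142 CPM and at 98.6 CPM in Hoil1+/+ f/f library 12. These genes were listed as epithelial. Whether CD45+ cells made some of them, and how many epithelial cells or how much free epithelial RNA each sort held, was not tested. With the mean log2 level of the all-epithelium genes as a covariate, the medians were -1.43, -0.30 and -1.09, and 0, 0 and 2 genes had an unadjusted p under 0.05. That covariate is made of the all-epithelium list itself, so the fall of its own median was built in. Without libraries 13 and 24 the medians were -3.94, -2.04 and -2.79, with 6, 1 and 4 genes at that p, against 7.01% of all genes in that fit. With *Xist* as a covariate they were -3.83, -1.91 and -2.92, with 5, 0 and 3. The count for all epithelium ran from 1 (without library 12, 13 or 20) to 5 with 1 library left out, and those for the other 2 from 4 to 9 and from 3 to 5.

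*Muc3* (chromosome 5, 137134922 to 137149322), a membrane-bound mucin of the brush border, had the smallest p of all genes. It was at 1.51, 4.80 and 1.01 CPM in Hoil1+/+ f/f, 9.40, 4.55 and 0.909 CPM in Hoil1+/+ ΔIEC and 8.11, 7.35 and 10.6 CPM in Hoil1-/- f/f libraries. No Hoil1-/- ΔIEC library had a *Muc3* count (unadjusted p of the interaction = 7.80e-05, edgeR). With 3 counts in each, 0.125 CPM on average, the Hoil1-/- to Hoil1+/+ ratio would be 141-fold lower in ΔIEC than in f/f mice. Such a fold takes the means of the other groups as measured, whatever their spread, so it is no lower bound. *Cdhr5* (chromosome 7, 141269083 to 141276786), a cadherin that links brush border microvilli, was likewise at 0 in these 3 libraries and at 1.02 to 20.5 CPM in the other 9. Its ratio, found in the same way, would be 252-fold lower. *Ap1m2*, an epithelial subunit of the clathrin adaptor AP-1, was at 0 in the same 3 libraries and at 1.13 to 5.17 CPM in the other 9, which would be 18.4-fold lower. The absence in all 3 libraries was common to the 3 genes. Library 24, however, lacked any count for 4014 of the genes tested, the most of the 12 libraries.

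Of the enterocyte genes with counts in every group, *Fabp2* and *Apoa4* also had their lowest mean in Hoil1-/- ΔIEC libraries. *Fabp2*, an intestinal fatty acid binding protein, was at 10.97, 49.5 and 14.8 CPM in Hoil1+/+ f/f, 98.5, 54.8 and 5.32 CPM in Hoil1+/+ ΔIEC, 43.02, 24.4 and 59.5 CPM in Hoil1-/- f/f and 3.67, 7.73 and 4.74 CPM in Hoil1-/- ΔIEC libraries, an interaction of -4.05 (-6.68 to -1.43, unadjusted p = 0.00569, edgeR). The groups overlapped within ΔIEC mice through library 22. *Apoa4*, an apolipoprotein of chylomicrons, was at 87.3, 17.5 and 1.42 CPM in Hoil1+/+ ΔIEC and 0.628, 0 and 0 CPM in Hoil1-/- ΔIEC libraries, with 2.92 to 18.05 CPM in f/f libraries and an interaction of -8.32 (-12.85 to -3.79). *Krt8*, a keratin of simple epithelia, was at 10.3 to 113 CPM in 9 libraries and 10.1 to 17.8 CPM in the Hoil1-/- ΔIEC libraries, with an interaction of -3.22 (unadjusted p = 0.0127, edgeR). It was -0.47 with the epithelial covariate, of which *Krt8* is a member.

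Some secreted and other epithelial genes had a higher mean in Hoil1-/- f/f than in Hoil1+/+ f/f libraries, although of the 4 described here only *Ang4* separated the Hoil1-/- f/f libraries from all others. *Clca1* (chromosome 3, 145003817 to 145032776), a protease secreted by goblet cells, was at 2.02, 8.15 and 1.99 CPM in Hoil1+/+ f/f and 110.0, 10.2 and 116 CPM in Hoil1-/- f/f libraries. In ΔIEC mice it was at 10.5, 16.1 and 1.79 CPM in Hoil1+/+ and 3.55, 2.29 and 0.235 CPM in Hoil1-/- libraries. The Hoil1 effect was 4.27 in f/f and -2.22 in ΔIEC mice, an interaction of -6.49 (-9.96 to -3.02, unadjusted p = 0.00160, edgeR), and -3.47 (unadjusted p = 0.0282, edgeR) with the epithelial covariate. *Ang4* (chromosome 14, 51763878 to 51773590), an antimicrobial ribonuclease of Paneth and goblet cells, was at 105, 15.5 and 13.3 CPM in Hoil1-/- f/f libraries and at 1.07 to 2.94 CPM in the other 9. Its interaction of -3.93 (-6.10 to -1.75) was -3.99 with the epithelial covariate and -2.54 without libraries 13 and 24, and library 13 had the highest value. *Gsdmc4*, a gasdermin of the intestinal epithelium, was at 49.2, 2.31 and 8.70 CPM in Hoil1-/- f/f libraries, 0 to 5.70 CPM in Hoil1+/+ libraries and 0 in the Hoil1-/- ΔIEC libraries. With 3 counts in each of the latter, its ratio would be 304-fold lower in ΔIEC mice, a value that rests largely on library 13 (49.2 CPM). *Clca4a*, of the same family as *Clca1*, was at 0.959, 6.23 and 0 CPM in Hoil1+/+ f/f, 30.1, 3.87 and 0.469 CPM in Hoil1+/+ ΔIEC and 9.02, 13.1 and 6.25 CPM in Hoil1-/- f/f libraries and at 0 in the Hoil1-/- ΔIEC libraries. Its ratio, found in the same way, would be 362-fold lower and rests in part on library 20 (30.1 CPM). Neither fold is a lower bound.

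Of the other goblet cell genes, *Tff3*, a trefoil peptide that is secreted with mucus, was at 2.47, 19.8 and 6.97 CPM and 65.7, 12.6 and 50.7 CPM in f/f mice (Hoil1+/+ and Hoil1-/-) and 25.7, 37.1 and 4.96 CPM and 3.80, 6.32 and 2.82 CPM in ΔIEC mice, an interaction of -4.53 (unadjusted p = 0.00319, edgeR). *Fcgbp* and *Zg16*, both proteins of the mucus layer, had interactions of -5.69 and -4.75. *Muc2*, the main secreted mucin, had -3.32 with an interval of -8.31 to 1.67. The Paneth cell genes had smaller values, with -1.34 for *Lyz1* and -1.05 for *Defa24*, whose highest values were in library 13. Tuft cell genes were too low to test the epithelial arm of the IL-25 loop here, since *Il25* had no count in any library, *Dclk1*, *Pou2f3* and *Trpm5* reached at most 3.77 CPM, and the list had a median interaction of -0.17 with 6 of 12 negative. *Clca4a*, *Gsdmc4* and the *Defa* genes have close copies in the genome, between which reads may have been divided.

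**Figure D3:**
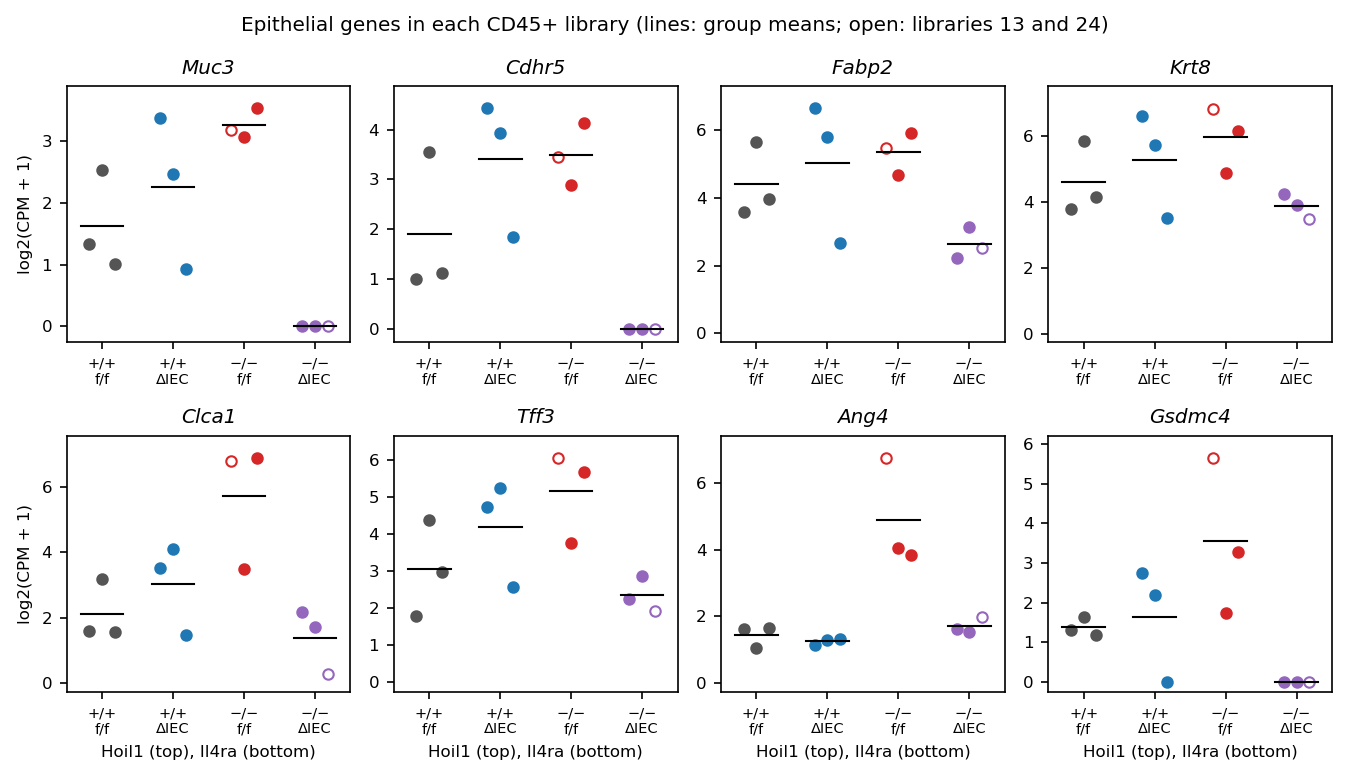
Each point is 1 CD45+ library, with log2(CPM + 1) on the y axis and the 4 genotypes on the x axis, lines at group means and open points for libraries 13 and 24. *Muc3*, *Cdhr5* and *Gsdmc4* are at 0 in all 3 Hoil1-/- ΔIEC libraries, and *Ang4* is high only in the 3 Hoil1-/- f/f libraries.

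B cell genes had negative interactions throughout. All 15 were negative, with a median of -2.15, and 6 of 15 (40%) had an unadjusted p under 0.05, against 2.48% of all genes with a negative interaction. The mean of the summed genes was lowest in Hoil1+/+ f/f (541 CPM) and highest in Hoil1+/+ ΔIEC libraries (1437 CPM). It was 787 CPM in Hoil1-/- f/f and 817 CPM in Hoil1-/- ΔIEC libraries. The sums of the Hoil1+/+ groups overlapped, at 310 to 731 CPM in f/f and 637 to 2134 CPM in ΔIEC libraries. *Ms4a1*, which encodes CD20, was at 8.10, 5.25 and 4.68 CPM in Hoil1+/+ f/f and 22.7, 88.01 and 98.4 CPM in Hoil1+/+ ΔIEC libraries. In Hoil1-/- f/f libraries it was at 3.04, 53.3 and 23.9 CPM and in Hoil1-/- ΔIEC libraries at 21.2, 45.9 and 20.4 CPM. For *Ms4a1* the Hoil1+/+ groups did not overlap each other and the Hoil1-/- groups did. The interaction was -3.41 (-5.90 to -0.93, unadjusted p = 0.0113, edgeR).

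*Cxcr5*, the chemokine receptor that draws B cells into follicles, was at 1.77, 3.08 and 4.86 CPM in Hoil1+/+ f/f and 36.03, 121 and 134 CPM in Hoil1+/+ ΔIEC libraries, and at 4.51, 51.5 and 20.2 CPM and 41.7, 98.5 and 2.58 CPM in the Hoil1-/- libraries of f/f and ΔIEC mice. Its interaction was -4.01 (-7.27 to -0.74, unadjusted p = 0.0204, edgeR). *Pax5* and *Fcer2a*, the B cell lineage factor and CD23, had interactions of -4.43 and -5.35, and *Cd79a*, which plasma cells also make, of -0.40. Germinal center genes had a median of -0.64 (6 of 8 negative), and -1.66 without libraries 13 and 24. Only *Rgs13* had an unadjusted p under 0.05 (12.5% of the list, against 2.48% of all genes with a negative interaction). *Rgs13* was at 0 in all Hoil1+/+ f/f and all Hoil1-/- ΔIEC libraries, at 0.158, 2.84 and 7.61 CPM in Hoil1+/+ ΔIEC and 3.95, 0 and 1.52 CPM in Hoil1-/- f/f libraries. Which cells made *Rgs13*, in libraries that also held epithelial transcripts, was not tested. B cell medians were -1.96 without libraries 13 and 24 (9 of 15 with an unadjusted p under 0.05, against 7.01% of all genes in that fit) and -2.01 with *Xist* as a covariate (6 of 15). The count was 1 of 15 without Hoil1-/- f/f library 14, 11 of 15 without library 13, and 2 of 15 with voom. The ileum holds lymphoid follicles, and how much follicle tissue entered each sort was not tested.

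T cell genes had a median interaction of -1.16 (15 of 15 negative) and genes of intraepithelial and cytotoxic lymphocytes of -1.17 (16 of 17). Of these, 1 (6.67%) and 0 had an unadjusted p under 0.05, against 2.48% of all genes with a negative interaction. *Lef1*, a transcription factor of naive T cells that was the 1 gene, was at 9.82, 5.07 and 8.32 CPM in Hoil1+/+ f/f, 27.3, 60.1 and 51.2 CPM in Hoil1+/+ ΔIEC, 5.56, 50.2 and 10.8 CPM in Hoil1-/- f/f and 13.6, 34.4 and 6.11 CPM in Hoil1-/- ΔIEC libraries, an interaction of -2.88 (unadjusted p = 0.0226, edgeR). Its value was -1.11 with B cell genes as a covariate. The T cell median was 0.01 and that of intraepithelial lymphocyte genes 0.46 with the epithelial covariate. Without Hoil1+/+ f/f library 18 the counts at an unadjusted p under 0.05 were 7 of 15 and 10 of 17, while negative interactions over all genes rose from 398 to 879. With age as a covariate 7 of 15 T cell genes reached that p, with 543 negative interactions over all genes. Plasma cell genes had the opposite sign, with 13 of 13 positive and a median of 1.13, and 0 had an unadjusted p under 0.05. Without Hoil1-/- f/f library 15, 6 of 13 did, where positive interactions over all genes at that p ranged from 194 to 545 with 1 library left out. The plasma cell median was 0.16 without libraries 13 and 24 and 0.18 with *Xist* as a covariate, and immunoglobulin genes took 12.1 to 44.0% of the counts of a library.

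Macrophage and monocyte genes had positive interactions in all 15 of 15, with a median of 0.87, and 2 of 15 (13.3%) had an unadjusted p under 0.05, against 1.9% of all genes with a positive interaction. The Hoil1 effect was near 0 in f/f mice (median -0.09) and positive in ΔIEC mice (median 0.87), where Hoil1+/+ libraries were low. *Adgre1*, which encodes F4/80, was at 455, 250.0 and 394 CPM and 519.5, 221 and 221 CPM in f/f mice (Hoil1+/+ and Hoil1-/-), which overlapped. In ΔIEC mice it was at 159, 158 and 202 CPM and 319.5, 254 and 544 CPM, which did not, and the interaction was 1.30 (0.04 to 2.56, unadjusted p = 0.0443, edgeR). *Ccr2*, the receptor that brings monocytes into tissue, had an interaction of 1.79. Without libraries 13 and 24, 9 of 15 had an unadjusted p under 0.05, against 7.01% of all genes in that fit, and the median was 1.28. With *Xist* as a covariate 0 of 15 did and the median was 0.79. With 1 library left out the count ran from 0 (without library 12, 14, 15, 19, 20 or 21) to 11 (without library 13).

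Alternative activation genes, which IL-4 and IL-13 induce in macrophages, had positive interactions in 10 of 11, with a median of 0.79, and 0 had an unadjusted p under 0.05 by edgeR. There were 6 of 11 without libraries 13 and 24, against 7.01% of all genes in that fit, with a median of 1.41, and without library 13 alone also 6. *Clec10a*, a lectin of these cells, was at 46.7, 28.2 and 30.8 CPM and 100.2, 30.9 and 25.9 CPM in f/f mice and 12.8, 9.17 and 15.6 CPM and 33.02, 48.96 and 52.7 CPM in ΔIEC mice (Hoil1+/+ and Hoil1-/-), an interaction of 1.27 (unadjusted p = 0.0808) with 12 libraries and 1.98 (unadjusted p = 0.00138) with 10, both from edgeR. *Retnla*, which encodes RELMα, was higher in Hoil1-/- libraries of both genotypes, by 4.18 and 4.61 on the log2 scale, at 206, 9.71 and 9.07 CPM in f/f and 22.7, 13.4 and 14.6 CPM in ΔIEC mice, and its interaction was 0.43 (-3.03 to 3.89). *Arg1*, which encodes arginase and is also made by ILC2, was the 1 negative gene, at -0.83.

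Mast cell genes had the highest median of the 25 lists, 2.17, with 9 of 11 positive and 4 of 11 (36.4%) at an unadjusted p under 0.05, all positive, against 1.9% of all genes. The interaction of their mean log2 level was smaller, 0.67, and not the highest, since that of eosinophil and neutrophil genes was 1.99. With 1 library left out the mast cell median ran from 0.995 to 2.80. *Mcpt2*, a chymase of mucosal mast cells, was at 409, 278 and 207 CPM in Hoil1+/+ f/f and 296, 106 and 148 CPM in Hoil1-/- f/f libraries. In ΔIEC mice it was at 31.1, 47.1 and 47.5 CPM in Hoil1+/+ and 129, 57.6 and 469.6 CPM in Hoil1-/- libraries, so the 3 Hoil1+/+ ΔIEC libraries were the lowest of the 12. The interaction was 3.08 (1.08 to 5.09, unadjusted p = 0.00593, edgeR), and 2.35 without libraries 13 and 24. *Cpa3*, a mast cell carboxypeptidase, was at 2.94, 2.46 and 6.23 CPM in these Hoil1+/+ ΔIEC libraries and 7.35 to 24.2 CPM in the other 9, with an interaction of 2.28 (unadjusted p = 0.00608, edgeR).

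*Mcpt9*, a close copy of *Mcpt2* with which reads may be shared, was at 33.2, 14.8 and 6.83 CPM in Hoil1+/+ f/f, 2.39, 0.998 and 1.38 CPM in Hoil1+/+ ΔIEC, 2.69, 1.63 and 3.31 CPM in Hoil1-/- f/f and 3.77, 2.29 and 31.5 CPM in Hoil1-/- ΔIEC libraries. Its interaction was 5.82 over 12 and 3.78 over 10 libraries, and library 24 was the highest of the Hoil1-/- ΔIEC libraries. *Gata2*, a transcription factor of mast cells, had an interaction of 2.83 (unadjusted p = 0.0273, edgeR) and *Kit*, the stem cell factor receptor, which ILC also carry, of -0.16. With *Xist* as a covariate 1 of 11 mast cell genes had an unadjusted p under 0.05, with a median of 1.99. Genes of eosinophils and neutrophils had a median of 1.14 (8 of 11 positive), which was -0.013 without library 19 and whose count of genes at that p went from 1 to 8 without library 22, led by *Mmp9*, a gelatinase, at 1.16 (unadjusted p = 0.0305, edgeR), and *Siglecf*, of eosinophils and tuft cells, was at 0.44 (-1.96 to 2.84).

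The 12 genes named for the smallest p among positive interactions included *Cmklr1* and *Vcam1*. *Cmklr1*, the chemerin receptor of macrophages and other leukocytes, was at 149, 147 and 159.6 CPM in Hoil1+/+ f/f and 142, 78.7 and 104 CPM in Hoil1-/- f/f libraries, and at 78.97, 78.2 and 91.5 CPM and 139, 134 and 171 CPM in Hoil1+/+ and Hoil1-/- libraries of ΔIEC mice. The Hoil1 genotypes did not overlap in either, and the directions were opposite, with Hoil1 effects of -0.49 and 0.84 and an interaction of 1.33 (0.58 to 2.08, unadjusted p = 0.00233, edgeR). *Vcam1*, an adhesion molecule of macrophages and endothelium, was at 28.1, 42.7 and 34.2 CPM in Hoil1+/+ f/f, 15.8, 7.95 and 32.9 CPM in Hoil1+/+ ΔIEC, 25.1, 13.8 and 14.1 CPM in Hoil1-/- f/f and 74.4, 79.2 and 32.1 CPM in Hoil1-/- ΔIEC libraries, an interaction of 2.70 (1.15 to 4.24, unadjusted p = 0.00258, edgeR). Library 24 overlapped library 22 in ΔIEC mice. *Atp6v1a*, a subunit of the proton pump of lysosomes, had 1.12, *Mfsd12*, a lysosomal transporter, 1.16, *Slc31a1*, a copper importer, 1.28, and *Plod1*, a collagen lysyl hydroxylase, 1.26. The others were *Tppp* (2.35), *Tmem170b* (1.15), *Trip6* (2.46) and *Mknk1* (1.05), a kinase of the translation factor eIF4E.

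The linear ubiquitin and NF-κB genes included values in both directions, with the TNF receptor gene positive and the LUBAC gene *Sharpin* negative. Of these 20 genes, 13 were positive with a median of 0.30, which was -0.02 with total counts in place of TMM, and 4 (20.0%) had an unadjusted p under 0.05, 3 positive and 1 negative, against 4.38% of all genes (2 genes without library 19). *Tnfrsf1a* (chromosome 6, 125349362 to 125362484), the TNF receptor whose complex LUBAC modifies, was at 141, 143 and 205 CPM and 119, 77.1 and 83.6 CPM in f/f mice and 125, 103 and 141 CPM and 154, 169.8 and 174 CPM in ΔIEC mice (Hoil1+/+ and Hoil1-/-). The Hoil1 genotypes did not overlap, Hoil1-/- being lower in f/f and higher in ΔIEC mice, and the interaction was 1.23 (0.46 to 2.01, unadjusted p = 0.00484, edgeR).

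*Sharpin*, the third LUBAC subunit, was at 26.1, 32.03 and 20.7 CPM and 35.9, 32.8 and 37.4 CPM in f/f mice and 31.5, 33.7 and 37.6 CPM and 20.8, 23.8 and 19.6 CPM in ΔIEC mice (Hoil1+/+ and Hoil1-/-). It also did not overlap between *Hoil1* genotypes, but Hoil1-/- was higher in f/f and lower in ΔIEC mice, an interaction of -1.11 (-1.81 to -0.41, unadjusted p = 0.00489, edgeR). It was -1.07 without libraries 13 and 24 (unadjusted p = 0.00855, edgeR). *Tnf* was at 66.2, 36.9 and 139 CPM and 34.6, 24.2 and 20.3 CPM in f/f mice and 38.5, 37.6 and 66.5 CPM and 98.9, 93.02 and 24.1 CPM in ΔIEC mice, with an interaction of 2.22 (unadjusted p = 0.0158, edgeR). *Nfkbia*, the NF-κB inhibitor and target, had 1.66 (unadjusted p = 0.0186, edgeR), and *Tnfaip3*, another target, 0.62 (-1.95 to 3.19).

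IL-4 and IL-13 receptor signaling genes had a median interaction of 0.01 and a mean of -0.02, and 1 of 11 had an unadjusted p under 0.05. This was *Il13ra1*, which pairs with IL-4Rα in the IL-13 receptor, at 73.4, 33.9 and 59.2 CPM and 24.2, 25.7 and 27.2 CPM in f/f mice and 21.9, 17.1 and 39.3 CPM and 30.6, 27.5 and 59.5 CPM in ΔIEC mice (Hoil1+/+ and Hoil1-/-), an interaction of 1.70 (0.46 to 2.93, unadjusted p = 0.0113, edgeR). *Il13ra1* is on the X chromosome, and its interaction was 1.05 (unadjusted p = 0.0560, edgeR) with *Xist* as a covariate and 1.19 (unadjusted p = 0.0555, edgeR) without libraries 13 and 24. *Stat6*, which carries the signal of IL-4Rα to the nucleus, was at 72.6 to 158 CPM in the 12 libraries with an interaction of 0.23 (-0.61 to 1.06).

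Interferon-stimulated genes had a median of 0.56, with 17 of 23 positive and 2 (8.70%) at an unadjusted p under 0.05, 1 in each direction, against 4.38% of all genes. The median was 0.0033 with total counts and 0.15 with the epithelial covariate, and 4 genes reached that p without libraries 13 and 24, against 7.01% of all genes in that fit. *Ifit1*, an RNA-binding antiviral protein, was at 4.88, 5.99 and 9.44 CPM and 14.9, 12.8 and 11.6 CPM in f/f mice and 6.82, 7.17 and 7.20 CPM and 5.05, 4.74 and 5.36 CPM in ΔIEC mice (Hoil1+/+ and Hoil1-/-), without overlap and in opposite directions, an interaction of -1.43 (unadjusted p = 0.0209, edgeR). *Cxcl9*, a chemokine induced by interferon-γ, went the other way at 1.46. Immediate-early and heat shock genes, which also respond to cell isolation, had a median of 0.91 (18 of 20 positive, 1 with an unadjusted p under 0.05 and 5 without library 22), and chemokine genes of 0.75 (18 of 30 positive, 4 or 13.3% with an unadjusted p under 0.05, 3 positive and 1 negative, against 4.38% of all genes). Without libraries 13 and 24 the chemokine count was 14 of 30, against 7.01% of all genes in that fit, and the median 1.16. With 1 library left out the chemokine count ran from 0 (without library 14) to 13 (without library 13) and the median was as low as 0.054. MHC class II genes had a median of 0.44 (-0.02 with total counts), proliferation genes of 0.37 (-0.29 without libraries 13 and 24, -0.40 with *Xist* and -0.22 with B cell genes as a covariate) and dendritic cell genes of -0.01, and 1, 0 and 0 of them had an unadjusted p under 0.05. Stromal and endothelial genes, of cells that the sort should leave out, had medians of 1.19 (8 of 10 positive) and 0.69 (7 of 10 positive), with 0 genes each at that p by edgeR, although the endothelial mean was -0.50 and its median -0.10 without library 17. The stromal median was 2.71 without libraries 13 and 24, with 10 of 10 positive and 5 at that p, against 7.01% of all genes in that fit. Without library 13 alone the stromal count was also 5.

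**Figure D4:**
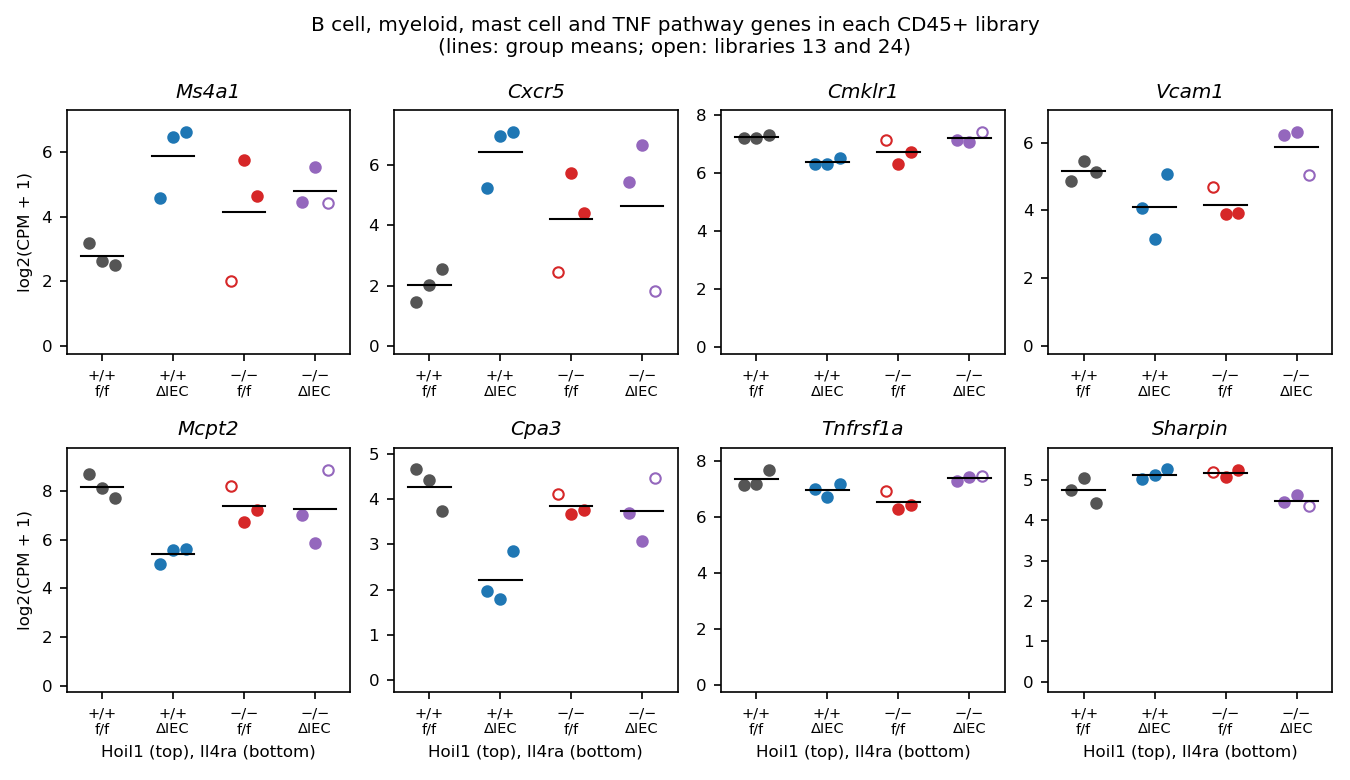
Each point is 1 CD45+ library, with log2(CPM + 1) on the y axis and the 4 genotypes on the x axis, lines at group means and open points for libraries 13 and 24. *Cmklr1* and *Tnfrsf1a* are lower in Hoil1-/- than in Hoil1+/+ libraries of f/f mice and higher in those of ΔIEC mice, *Sharpin* is the reverse, and *Mcpt2* and *Cpa3* are lowest in Hoil1+/+ ΔIEC libraries.

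Among genes with a negative interaction that are not epithelial, *Bola1*, a mitochondrial iron-sulfur protein, was at 4.43, 6.78 and 4.97 CPM and 8.74, 11.4 and 8.89 CPM in f/f mice and 7.55, 8.29 and 9.40 CPM and 3.45, 1.20 and 1.84 CPM in ΔIEC mice (Hoil1+/+ and Hoil1-/-). Its Hoil1 effects were 0.84 and -1.95 and the interaction -2.80 (-4.32 to -1.27, unadjusted p = 0.00181, edgeR). *Ppp1r7*, a regulatory subunit of protein phosphatase 1, was at 14.7 to 17.4 CPM in Hoil1-/- ΔIEC and 22.6 to 34.2 CPM in Hoil1+/+ ΔIEC libraries, an interaction of -1.72. *Them6* was at 5.71 to 7.35 CPM in Hoil1-/- ΔIEC and 13.7 to 26.2 CPM in the other 9 libraries, an interaction of -1.57. All 24 genes named for the smallest p kept their direction under all 24 alternatives, and 16 of 24 had an unadjusted p under 0.05 with total counts, 20 with voom, 21 with the epithelial covariate, 23 with DESeq2 and 24 under each of the rest. The rule that named them required that p with 12 and with 10 libraries, so this says little of their stability.

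Which group stood apart from the others differed by gene, although no interaction passed. How many such genes a random order of the libraries would give was not tested, so the counts describe these libraries only. All 3 libraries of a group lay below the other 9 in 24 genes (0.149%) for Hoil1+/+ f/f, 98 (0.61%) for Hoil1+/+ ΔIEC, 37 (0.23%) for Hoil1-/- f/f and 90 (0.56%) for Hoil1-/- ΔIEC mice. They lay above the other 9 in 59 (0.367%), 83 (0.517%), 47 (0.293%) and 66 (0.411%) genes. In 12 genes (0.0747%), *Mfsd12*, *Trip6* and *Mknk1* among them, all 6 libraries of the Hoil1+/+ f/f and Hoil1-/- ΔIEC groups were above the other 6, and in 13 genes (0.0809%), *Bola1* among them, all 6 were below.

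**Figure D5:**
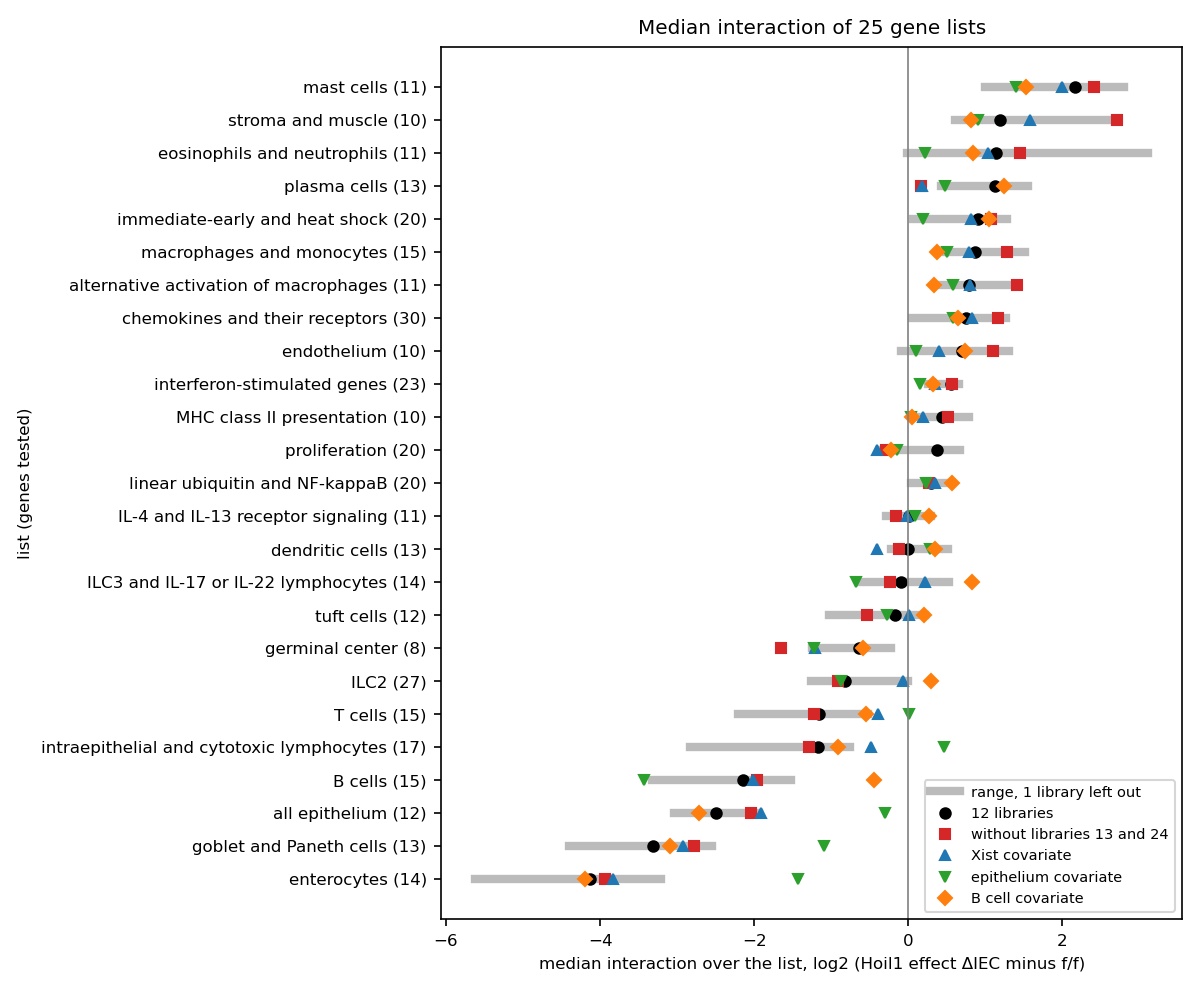
The median interaction of each of the 25 gene lists is on the x axis (log2, Hoil1 effect in ΔIEC minus f/f mice) and the lists, with the number of genes tested, on the y axis. Black points are the 12-library values, colored points 4 alternatives and gray bars the range with 1 library left out, and the enterocyte, B cell, macrophage and mast cell lists stay on 1 side of 0 throughout.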

How the data were processed

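RNA was sequenced from sorted CD45+ cells of the ileum. The authors trimmed the reads with cutadapt (quality at least 20, length at least 40), aligned them with STAR to GRCm38 (mm10) and deposited a table of raw counts per gene made with featureCounts, for 24 libraries and 39056 genes. Tool versions and whether the counting used strand are not given in the sources used here, so overlapping genes and close copies are uncertain. Sequencing depth per library stands in the report.

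From these counts the 12 CD45+ libraries were fitted together by genotype with edgeR 4.0.16 in R 4.3.3 (filterByExpr at its settings of 10 counts and 15 in total, TMM scaling, quasi-likelihood test) and the interaction was tested as a contrast, with Benjamini-Hochberg adjustment over 16060 genes at 0.05. The scripts were tested on simulated data, in which the likelihood ratio test and DESeq2 also called genes that had not been changed and the quasi-likelihood test missed most changed genes. Intervals are 95%, and the floor for a group without counts is 3 counts in each library, which covers counting error only. Groups came from the labels, no sample was paired, and 38872 genes were matched to GENCODE M21 by identifier. Named genes were those of the study's CD45+ comparison, the 12 in each direction with the smallest p (autosomal, protein-coding, at least 1 CPM on average, unadjusted p under 0.05 and the same direction with 12 and with 10 libraries), the member of each of 25 gene lists with the smallest p, and sex and sort checks. Other members of the lists were named as examples after their values were seen. The members and lists were chosen with earlier results of these data known. The 24 alternatives left out libraries 13 and 24 or each library in turn, or changed the scaling, filter, test (likelihood ratio, DESeq2 1.42.0, limma 3.58.1 voom), genes or covariates (*Xist*, age, mean level of epithelial or B cell genes). No promoter or other sequence was read, since no measurement bears on one.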

Additional observations from a re-analysis of the deposited data

How the results depend on the processing

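No interaction passed the adjusted threshold under any edgeR quasi-likelihood alternative or with voom, while the likelihood ratio test called 25 and DESeq2 89. The Hoil1 effect in f/f and ΔIEC mice was called in 1 gene each, *Rbck1*, and in 9 and 21 genes by the likelihood ratio test, 63 and 97 by DESeq2, 0 and 0 without libraries 13 and 24 and with total counts, and, in ΔIEC mice, 2 by voom and 0 with the epithelial covariate. At an unadjusted p under 0.05 the positive and negative interactions, 305 and 398, numbered 611 and 582 without libraries 13 and 24, 107 and 433 with total counts, 972 and 766 with voom, 185 and 262 with the epithelial covariate and 619 and 318 with the B cell covariate. With 1 library left out, interaction calls stayed at 0, positive interactions ranged from 194 (without Hoil1+/+ ΔIEC library 21) to 545 (without Hoil1-/- f/f library 13), negative ones from 361 to 879 (without Hoil1+/+ f/f library 18), and Hoil1 calls from 0 to 1 in f/f and 0 to 2 in ΔIEC mice. The causes of these shifts were not tested. Signs turned for *Rbck1* (-0.12 with total counts, -0.22 to 0.63 with 1 library left out), *1700061F12Rik* (-0.71 without libraries 13 and 24, -0.077 with total counts, -1.39 with the epithelial covariate, -0.54 to 3.33), *Il5* (-4.66 to 0.75), *Il17rb* (0.088 with the B cell covariate, -1.81 to 0.22), *Il13* (0.19 without libraries 13 and 24, 0.42 with *Xist*, 0.53 with B cell genes, -1.76 to 1.03), *Siglecf* (-0.32 to 0.86), *Il4ra* (-0.067 to 0.82), *Cd209a* (-0.095 with voom) and *Xist* itself (0.92 as its own covariate). The fitted values of *1700061F12Rik* and *Il5* depend on groups without counts and are no bounds. Where 1 library was left out of a group, the other 2 were assumed to vary like the rest. No paired analysis was possible because the groups share no replicate numbers in the labels. Depth limits genes under about 1 CPM in the Hoil1-/- ΔIEC libraries most, where 3 counts in each library are 0.125 CPM.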
